A study of Mus musculus with 6 samples.

Results

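The red blood cell genes described here are Hba-a1, Hbb-b1, Alas2 and Slc4a1, taken as a measure of the blood held in each spinal cord sample. Every non-control probe that carried one of these names in the scanner files was taken, which gave 7 of the 41174 probes on the array: 1 for Hba-a1, 4 for Hbb-b1, 1 for Alas2 and 1 for Slc4a1. The study measured RNA in the spinal cord of male C57BL/6 mice that were 8 weeks old, in 3 dhtkd1 null and 3 wild-type samples. Each sample's RNA was amplified, marked with the dye Cy3 and put on 1 Agilent array that covers the mouse transcriptome. Dhtkd1 encodes a subunit of a mitochondrial enzyme complex that breaks down 2-oxoadipate on the route from lysine and tryptophan. How the null allele was made, which part of the gene it lacks and whether the vessels were flushed before dissection are not given in the sources used here. The samples are called null 1 to 3 and wild-type 1 to 3 after their labels, which do not say that each is a separate animal, so the p-values measure the spread between these samples and part of it may be technical. Signals are given as the log2 intensity of a probe minus the 75th percentile of its array, so that 0 is the level of a fairly bright probe and 1 unit is a doubling, and differences are null minus wild-type with their standard error (SE).

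Haemoglobin is built from alpha and beta globin chains that each hold a haem group, and red cells carry it in great excess over other proteins. Mature mammalian red cells have no nucleus, and the youngest cells in the circulation, the reticulocytes, still hold globin messenger RNA for a short time after they leave the marrow. A tissue taken with its blood therefore yields red cell transcripts, although globin transcripts have also been found in rodent neurons and oligodendrocytes. Hba-a1 encodes an alpha chain and Hbb-b1 an adult beta chain. Alas2 encodes the erythroid 5-aminolevulinate synthase, which carries out the first and rate-limiting step of haem synthesis in red cell precursors. Slc4a1 encodes band 3, the anion exchanger that swaps chloride for bicarbonate across the red cell membrane and anchors the membrane skeleton. In bulk tissue such as this, fewer red cells and less RNA per cell cannot be told apart.

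The probes are shown first because globin genes come as near-identical copies and 1 probe can bind transcripts of several of them. Their positions are on mm9, and the sequences are printed 5′ to 3′ in the sense of the transcript. The Hba-a1 probe begins at base 103 of its transcript and lies at chr11:32183775-32183956 on the plus strand, a span of 182 genomic bases for 60 probe bases, so that it crosses an intron. Its accessions belong to both Hba-a1 and Hba-a2. The Hbb-b1 probes lie on the minus strand of chromosome 7 and begin at bases 61, 231, 262 and 496 of the transcript, at chr7:110962317-110962376, chr7:110962031-110962090, chr7:110962000-110962059 and chr7:110961112-110961171. The first 3 lie in coding sequence and the last in the 3′ untranslated region. By their accessions, the gene that the array calls Hbb-b1 is now named Hbb-bt, and the probes at bases 231 and 262 also stand for Hbb-bs, the probe at base 496 for Hbb-b2, and the probe at base 61 for both. C57BL/6 mice carry the Hbb-bs and Hbb-bt pair, whose signals these probes may not separate. The capitals mark the 29 bases that the probes at 231 and 262 share, so these 2 are not independent measurements.
Hba-a1: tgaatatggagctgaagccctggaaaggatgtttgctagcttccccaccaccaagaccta
Hbb-b1 at base 61: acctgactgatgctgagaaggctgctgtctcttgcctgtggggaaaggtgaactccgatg
Hbb-b1 at base 231: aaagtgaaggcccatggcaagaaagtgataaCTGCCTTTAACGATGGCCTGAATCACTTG
Hbb-b1 at base 262: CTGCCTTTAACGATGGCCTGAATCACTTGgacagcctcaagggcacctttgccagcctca

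The Alas2 probe begins at base 1806 and lies at chrX:147004993-147005052 on the plus strand, across the end of the coding sequence. Its first 42 bases run up to the stop codon, given in capitals.
Alas2 up to its stop codon: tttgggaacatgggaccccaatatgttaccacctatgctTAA
The Slc4a1 probe begins at base 4368 of its transcript and lies at chr11:102210256-102210315 on the minus strand, in the 3′ untranslated region. The accessions of the Alas2 and Slc4a1 probes each belong to 1 gene, while a globin signal can hold that of a neighbouring copy.

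All 7 probes were well above background on all 6 arrays, and no spot of any array was saturated. Each had a higher mean in null than in wild-type cords, by log2 differences of 0.18 to 0.89, where 55.9% of the 21439 genes represented by 1 probe each had a higher mean in null. None of the 7 passed an adjusted p of 0.05 by limma with Benjamini-Hochberg adjustment over all 33191 probes tested, and neither did any other probe (0%). At an unadjusted p under 0.05 stood 2719 probes (8.19%), 1829 with null higher (5.51%) and 890 with null lower (2.68%). Alas2 and the 5′ probe of Hbb-b1, 2 of the 7, lay higher on every null array than on every wild-type array, against a background of 9.49% of all probes. The same 2 were the ones of the 7 with an unadjusted p under 0.05. Of the 5 probes for adult globins, 4 overlapped between the genotypes.

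Hba-a1, the alpha chain, had signals of 6.25, 5.56 and 5.69 in null cords, against 5.86, 5.08 and 6.04 in wild-type cords. Null 1 was the highest array and wild-type 2 the lowest, and the groups overlapped, since wild-type 3 lay above null 2 and null 3. The means were 5.83 ± 0.37 in null and 5.66 ± 0.51 in wild-type cords (SD, n = 3 each), a log2 difference of 0.18 (SE 0.30, adjusted p = 0.875 by limma). Its 95% interval of −0.57 to 0.92 covers ratios of null over wild-type between 0.673 and 1.90. The exact 2-sided permutation test gave p = 0.7, and with 3 arrays against 3 it cannot go under 0.1. The sign of this difference rested on single arrays: it was −0.11 without wild-type 2 and −0.03 without null 1.

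Hba-a2, the other adult alpha gene, is not one of the 4 genes but its probe shares 30 bases with the Hba-a1 probe with 3 mismatches. Its signals were 5.78, 5.06 and 5.23 in null cords, against 5.39, 4.54 and 5.53 in wild-type cords. It followed Hba-a1 over the 6 arrays with r = 0.999, as a pair of probes that read overlapping sequence, and adds no independent measurement.

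Hbb-b1, the beta chain, was read at 4 places. The probe at base 262, the brightest and so the one that stands for the gene below, had signals of 7.26, 6.84 and 6.95 in null cords, against 6.90, 6.14 and 6.73 in wild-type cords. Wild-type 1 lay between null 2 and null 3, so the groups overlapped by this 1 array. The means were 7.02 ± 0.22 in null and 6.59 ± 0.40 in wild-type cords (SD, n = 3 each), a log2 difference of 0.43 (SE 0.22, 95% interval −0.12 to 0.98, adjusted p = 0.653 by limma, exact permutation p = 0.2). On the scale of the scanner, the processed intensity of this probe was 162154, 112540 and 127361 in null and 120188, 71395 and 100912 in wild-type cords. Wild-type 2 was the dimmest array at this probe.

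The probe at base 231, which shares part of its sequence with the last one, read 5.74, 5.08 and 5.38 in null cords, against 5.30, 4.63 and 5.26 in wild-type cords. Here wild-type 1 and wild-type 3 both lay above null 2. Its log2 difference was 0.34 (SE 0.24, 95% interval −0.26 to 0.94, adjusted p = 0.726 by limma, exact permutation p = 0.4). At base 496, in the 3′ untranslated region, the signals were 6.997, 6.29 and 6.56 in null cords, against 6.44, 5.54 and 6.28 in wild-type cords. Wild-type 1 again lay above null 2, and the log2 difference was 0.53 (SE 0.29, 95% interval −0.18 to 1.24, adjusted p = 0.661 by limma, exact permutation p = 0.2).

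At base 61, near the 5′ end, the signals were 5.85, 5.64 and 5.48 in null cords, against 5.36, 4.27 and 4.67 in wild-type cords. At this place all 3 null arrays lay above all 3 wild-type arrays. The log2 difference was 0.89 (SE 0.28, 95% interval 0.20 to 1.58, adjusted p = 0.564 by limma), a ratio of 1.85, and the exact permutation p was 0.1, the smallest that 3 against 3 arrays can give. The difference between the genotypes thus spanned 0.34 to 0.89 over the 4 probes named Hbb-b1, which do not all stand for the same beta globin copies. Whether the probes differ from each other was not tested.

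**Figure D1:**
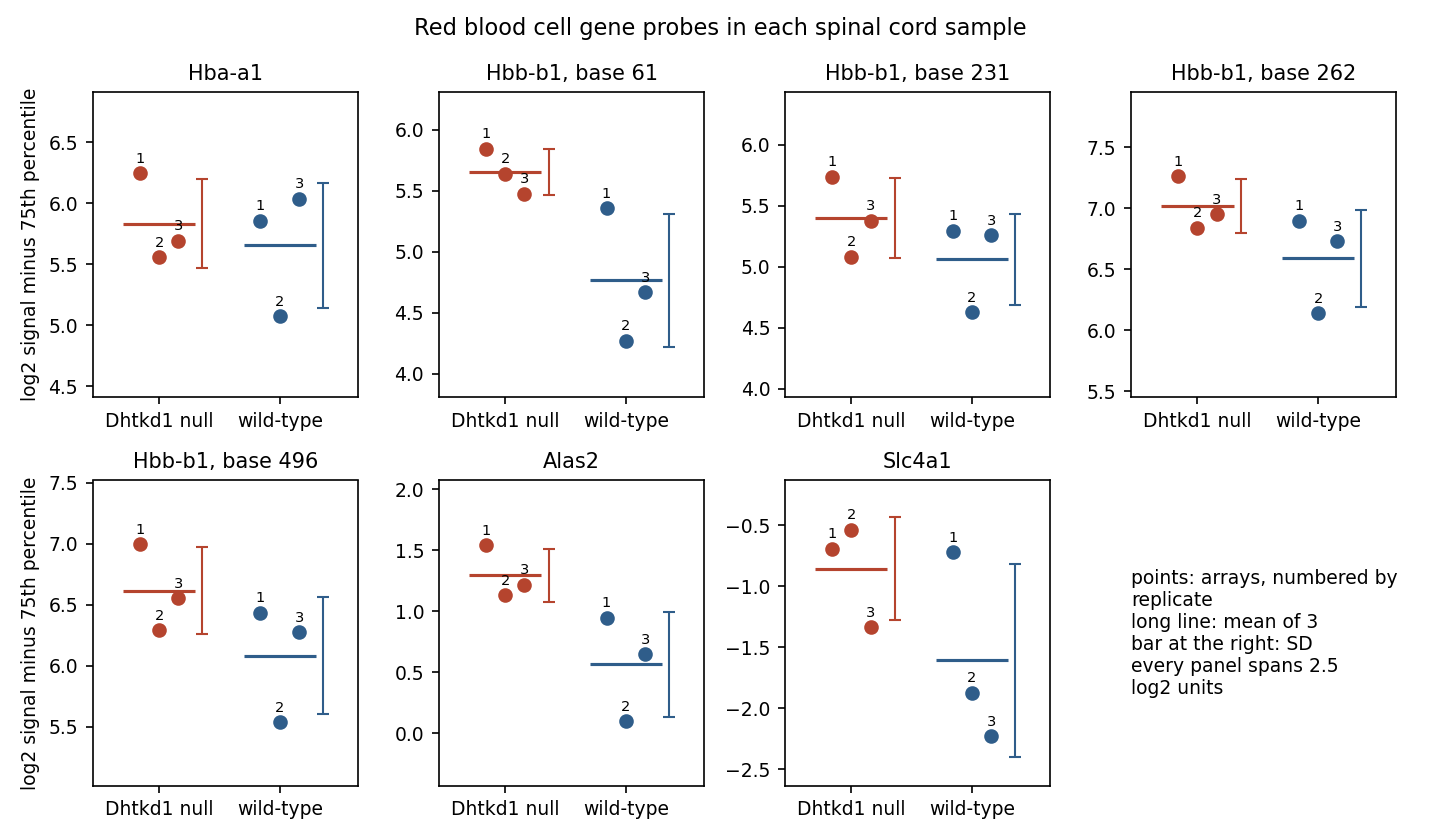
Signals of the 7 probes on each array (log2 signal minus the array's 75th percentile), with dhtkd1 null to the left of wild-type and arrays numbered by replicate. Lines are means and bars are SD (n = 3 each), and the genotypes separate only for Alas2 and for Hbb-b1 at base 61, while wild-type 2 is the lowest array in every panel but that of Slc4a1.

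Alas2, the enzyme of haem synthesis, had signals of 1.54, 1.13 and 1.22 in null cords, against 0.95, 0.10 and 0.65 in wild-type cords. Every null array lay above every wild-type array, and the gap between null 2 and wild-type 1, the closest pair, was smaller than the range within either group. The means were 1.30 ± 0.22 in null and 0.57 ± 0.43 in wild-type cords (SD, n = 3 each), a log2 difference of 0.73 (SE 0.24, 95% interval 0.15 to 1.31, adjusted p = 0.576 by limma, exact permutation p = 0.1). This is a ratio of 1.66, with an interval of 1.11 to 2.48. In processed intensity, Alas2 read 3070, 2152 and 2394 in null and 1946, 1087 and 1491 in wild-type cords.

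Slc4a1, the band 3 anion exchanger, had signals of −0.69, −0.54 and −1.34 in null cords, against −0.72, −1.87 and −2.23 in wild-type cords. Wild-type 1 stood beside null 1 and above null 3, so the groups overlapped. The means were −0.85 ± 0.42 in null and −1.61 ± 0.79 in wild-type cords (SD, n = 3 each), a log2 difference of 0.75 (SE 0.43, 95% interval −0.30 to 1.80, adjusted p = 0.672 by limma, exact permutation p = 0.2). Its interval was the widest of the 7 and reached a ratio of 3.49 at its upper end and 0.812 at its lower end. Its processed intensity was 654, 678 and 408 in null and 613, 277 and 203 in wild-type cords.

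The 2 slides of the study hold the genotypes unequally. Slide 1 carried null 1, null 2, null 3 and wild-type 2, and slide 2 carried wild-type 1 and wild-type 3, so that a within-slide value sets 3 null arrays against wild-type 2 alone and slide 2 gives none. Wild-type 2 was the lowest array for Hba-a1, for all 4 Hbb-b1 probes and for Alas2. Within slide 1 the log2 differences were 0.76 for Hba-a1, 1.38, 0.77, 0.88 and 1.07 for Hbb-b1 at bases 61, 231, 262 and 496, 1.19 for Alas2 and 1.02 for Slc4a1. Without wild-type 2, in the same order, they were −0.11 for Hba-a1, 0.64, 0.12, 0.20 and 0.26 for Hbb-b1, 0.50 for Alas2 and 0.62 for Slc4a1. The Hbb-b1 differences at bases 231, 262 and 496 thus shrank by more than 1.5 times when this array was left out, and the Hba-a1 difference changed sign. No adjusted p of the 7 probes was under 0.05 in either setting.

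**Figure D2:**
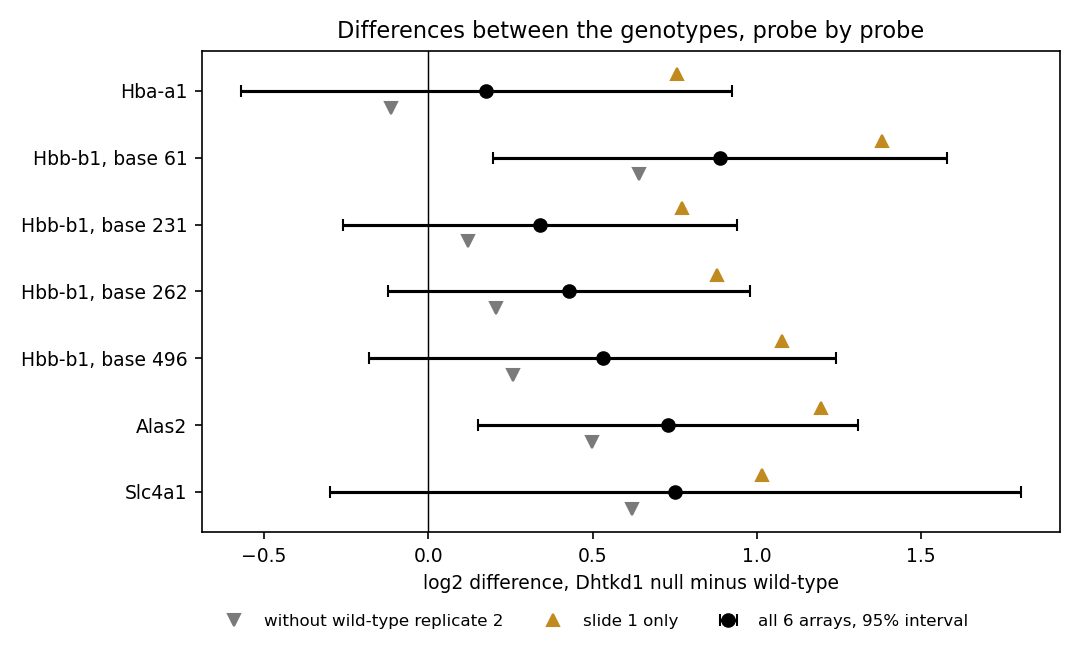
Log2 difference of dhtkd1 null minus wild-type for each probe, with its 95% interval over all 6 arrays (black), within slide 1 (upward triangles, 3 null arrays against wild-type 2) and without wild-type replicate 2 (downward triangles). The intervals of Alas2 and Hbb-b1 at base 61 lie above 0, and leaving out wild-type 2 moves every probe to the left, Hba-a1 to −0.11.

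From the lowest to the highest of the 6 arrays, the signal ranged 2.26-fold for Hba-a1, 2.16-fold to 2.98-fold for the Hbb-b1 probes, 2.71-fold for Alas2 and 3.23-fold for Slc4a1. The median range of all kept probes was 1.36-fold. A range as wide as that of Hba-a1 was found in 10.6% of all kept probes, as that of Alas2 in 7.19%, and as that of Slc4a1 in 5.25%. The arrays of a single genotype cannot range wider than all 6 arrays. The null arrays ranged 1.62-fold for Hba-a1, 1.34-fold for Hbb-b1 at base 262, 1.33-fold for Alas2 and 1.74-fold for Slc4a1. The wild-type arrays ranged 1.95-fold, 1.69-fold, 1.80-fold and 2.85-fold for the same genes.

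The 4 genes, each a candidate measure of blood, ordered the arrays alike only in part. Null 1 was the highest array for Hba-a1, Hbb-b1 and Alas2, and wild-type 2 the lowest. Relative to the mean of all 6 arrays, null 1 stood at 0.50 for Hba-a1, 0.46 for Hbb-b1 at base 262, 0.61 for Alas2 and 0.54 for Slc4a1. Wild-type 2 stood at −0.67 for Hba-a1, −0.66 for Hbb-b1, −0.83 for Alas2 and −0.64 for Slc4a1. The arrays between them were ordered differently by the 4 genes.

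Of the 6 pairs of genes, Hbb-b1 and Alas2 agreed best, with Pearson r = 0.968 over the 6 arrays (exact permutation p = 0.00833, adjusted p = 0.05 over the 6 pairs) and Spearman rho = 0.943 (exact permutation adjusted p = 0.1). Without wild-type 2 and null 1, the arrays farthest from the median, r was 0.848 over the other 4. After each genotype was centred on its own mean, r was 0.991. An exact permutation of the arrays inside each genotype, which has 36 orders, gave p = 0.0278, the smallest it can give, and an adjusted p of 0.167. Beta globin and the haem synthesis enzyme thus ordered the cords nearly alike.

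Hba-a1 followed Hbb-b1 with r = 0.857 and rho = 0.60 (exact permutation adjusted p = 0.2 for r). This relation rested on wild-type 2 and null 1, since r was −0.57 over the other 4 arrays, while with each genotype centred on its own mean it was 0.941 over all 6 (exact permutation inside each genotype, adjusted p = 0.167). The same held for Hba-a1 with Alas2, where r was 0.710 and rho 0.486 over all 6 arrays (exact permutation adjusted p = 0.212) and −0.91 over the other 4, and 0.888 with each genotype centred (exact permutation adjusted p = 0.167). Among those 4 arrays wild-type 3 was the highest for Hba-a1 and the lowest for Alas2. The alpha globin signal followed the Hbb-b1 probes to different degrees, with r = 0.928 at base 231, 0.880 at base 496, 0.857 at base 262 and 0.571 at base 61.

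Slc4a1 gave an array order of its own. From high to low it ran null 2, null 1, wild-type 1, null 3, wild-type 2 and wild-type 3, so that wild-type 3, second highest for Hba-a1, was lowest for Slc4a1, and null 2, next to lowest for Hba-a1, was highest. Relative to the mean of the 6 arrays, wild-type 3 stood at −0.999 for Slc4a1 and at 0.29 for Hba-a1, and null 2 at 0.69 for Slc4a1 and at −0.19 for Hba-a1. Its r was 0.239 with Hba-a1 (rho 0.029), 0.618 with Hbb-b1 (rho 0.543) and 0.715 with Alas2 (rho 0.657), and none of these had an exact permutation adjusted p under 0.05. The mean of the 4 genes was 0.53, 0.18 and 0.07 in null cords and 0.18, −0.70 and −0.27 in wild-type cords, so that wild-type 1 was level with null 2 and above null 3.

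**Figure D3:**
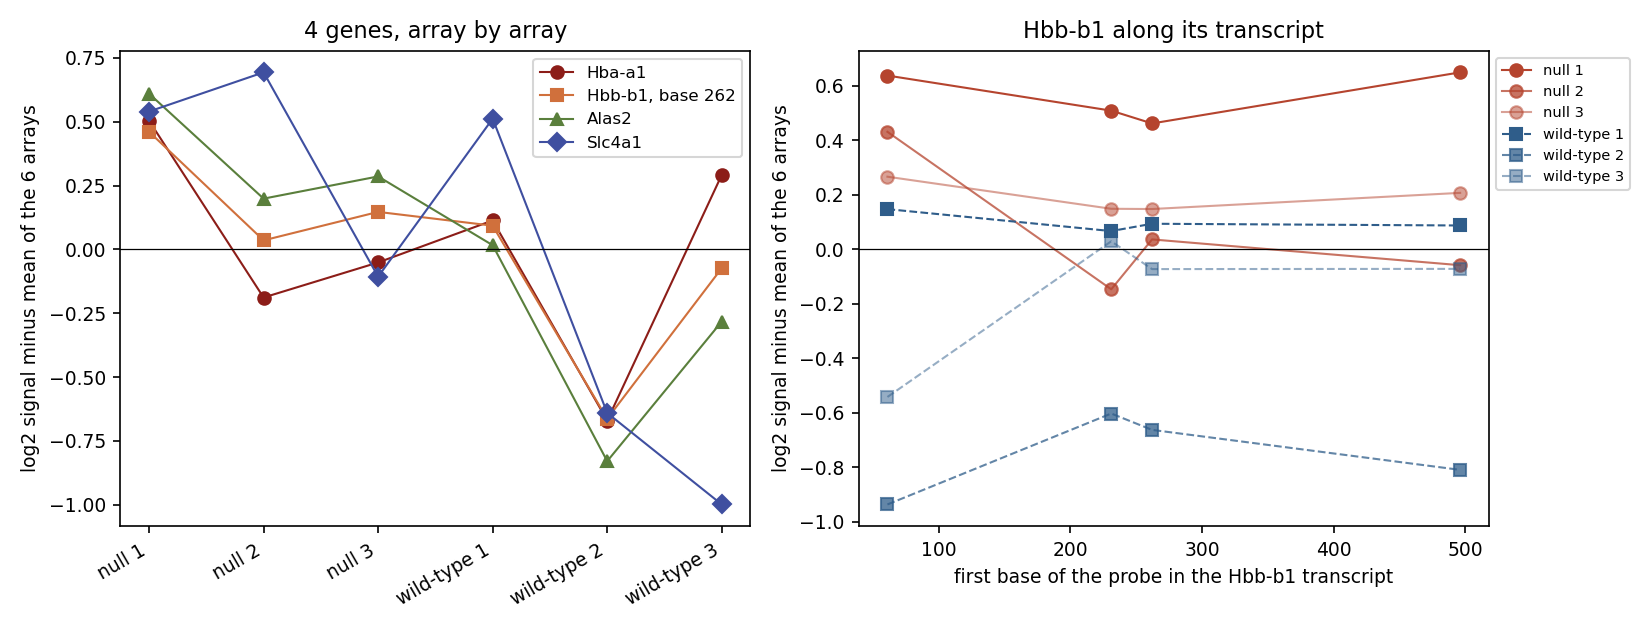
Left, log2 signal of each gene minus its mean over the 6 arrays, null arrays first: Hbb-b1 and Alas2 run in parallel, and Hba-a1 and Slc4a1 part at null 2 and wild-type 3. Right, the 4 Hbb-b1 probes by their first base in the transcript, 1 line per array (null red and solid, wild-type blue and dashed): wild-type 3 stands at −0.54 at base 61 and near 0 at the other probes, and null 2 stands at 0.43 at base 61.

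The separation at the 5′ probe of Hbb-b1 came with a difference between the probes at base 61 and base 496. The probe at base 61 also stands for Hbb-bs and that at base 496 does not. Position and globin copy therefore cannot be told apart by this pair of probes. The probes at bases 231 and 262 stand for Hbb-bs too. Over the arrays they followed the probe at base 496 with r = 0.986 and 0.992, and that at base 61 with r = 0.770 and 0.904. What sets base 61 apart was not tested. The centred signal at base 61 minus that at base 496 was −0.01, 0.49 and 0.06 in null cords, against 0.06, −0.13 and −0.47 in wild-type cords. Null 2 was thus relatively high and wild-type 3 relatively low at the 5′ probe, and the other 4 arrays lay within 0.13 of 0. Over 5057 transcripts with a pair of probes at least 300 bases apart, the median of the same quantity was 0.00, 0.04 and 0.04 in null and 0.01, 0.04 and −0.13 in wild-type cords. Wild-type 3 was the array with the lowest 5′ signal over all these transcripts too, and its part in the Hbb-b1 result was not tested. Null 2 did not stand apart in that measure.

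Among the other globin genes, 4 of 10 listed were tested, and all 4 had higher means in null cords, as did 55.9% of all genes. Their median log2 difference was 0.29 against 0.02 over all genes. Hba-a2, described above, is 1 of the 4, and its difference of 0.20 was −0.01 without null 1 and −0.10 without wild-type 2. Hbq1b, a theta globin gene, read −4.07, −4.08 and −4.20 in null cords, against −4.73, −4.39 and −4.34 in wild-type cords, and Hbb-y, an embryonic beta chain, read −4.12, −4.29 and −4.05 in null, against −4.37, −4.33 and −4.92 in wild-type cords. Neither overlapped between the genotypes, and both were dim. They are named as the 2 genes of smallest p in the list, and 9.49% of all probes lay higher on every null array. The embryonic genes Hba-x and Hbb-bh1 were well above background on only 1 array each and were not tested. Of the list, 1 gene had an unadjusted p under 0.05 (background over all genes 5.81% with null higher and 2.94% with null lower), and none passed after adjustment.

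The rest of the haem pathway showed no common direction. Of 14 genes of haem synthesis and mitochondrial iron import, 7 had higher and 7 lower means in null (55.9% of all genes were higher). None had an unadjusted p under 0.05, and the median log2 difference was 0.00. Alas1, which encodes the housekeeping form of the enzyme, read 2.89, 3.05 and 3.01 in null cords, against 2.81, 2.61 and 2.84 in wild-type cords. Its groups did not overlap, where 9.49% of all probes lay higher on every null array. Urod, for uroporphyrinogen decarboxylase of the same pathway, differed by 0.00 (SE 0.08). Cells of many kinds use these enzymes, so their signal in the cord is not that of blood alone.

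Genes of the red cell membrane and skeleton numbered 17, of which 14 had higher and 3 lower means in null (55.9% of all genes were higher). The median log2 difference was 0.11 (0.35 within slide 1, 0.05 without wild-type 2). At an unadjusted p under 0.05 stood 1 gene, in the lower direction (2.94% of all genes). This gene was Tmod1, which encodes a cap of actin filaments and is also used by other cells: it read −0.60, −0.92 and −0.73 in null cords, against −0.22, 0.20 and −0.25 in wild-type cords. Rhag, which encodes a red cell ammonium channel, read −6.26, −5.39 and −6.79 in null and −6.52, −6.95 and −7.69 in wild-type cords, and was well above background on 4 of the 6 arrays. The list's mean per array, relative to the 6 arrays, was 0.03, 0.34 and −0.07 in null and 0.29, −0.29 and −0.29 in wild-type cords. Null 2 and wild-type 1 were its high arrays, as they were among the 3 highest for Slc4a1.

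Of 18 genes of red cell enzymes, chaperones and late-stage factors, 11 had higher and 7 lower means in null (55.9% of all genes were higher). The median was 0.10 (0.06 without wild-type 3, 0.17 without wild-type 1). At an unadjusted p under 0.05 stood 1 of the higher and 2 of the lower (5.81% and 2.94% of all genes). Isg20, an exonuclease, read −2.20, −2.24 and −2.17 in null cords, against −2.64, −2.996 and −2.54 in wild-type cords. Cat, the catalase gene, went the other way, with 1.69, 1.52 and 1.57 in null cords, against 1.81, 1.96 and 2.19 in wild-type cords. Neither overlapped between the genotypes, but they are named as the 2 genes of smallest p in the list. On this list 3 genes lay higher and 3 lower on every null array (9.49% and 4.84% of all probes). Prdx2 and Car2, which are abundant in red cells but also used by glia or neurons, differed by 0.06 (SE 0.09) and −0.31 (SE 0.16).

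Of 9 erythroid transcription factors, 7 had higher means in null (55.9% of all genes did). The median was 0.11, with 0.02 without null 2 or without wild-type 3 and 0.34 without null 3. The unadjusted p was under 0.05 for 1, with null higher (5.81% of all genes). That factor, Bcl11a, which silences fetal globin in human red cells and is also expressed by neurons, read 1.39, 1.15 and 1.12 in null cords, against 1.03, 0.59 and 0.87 in wild-type cords. Gata1, a master regulator of red cell genes, read −5.81, −5.75 and −6.30 in null and −6.36, −6.21 and −6.59 in wild-type cords, and was well above background on 5 arrays. None of these erythroid genes passed after adjustment.

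Some erythroid genes shared the array order of Slc4a1. Of the 62 tested on the 5 erythroid lists, 3 had exactly that order, and they are named here after their values were seen. How many of all probes had that order was not worked out. Ahsp, the chaperone of free alpha globin, read −0.42, −0.05 and −1.60 in null cords, against −0.52, −1.66 and −2.02 in wild-type cords. Nfe2, a factor of globin and platelet genes, read −2.92, −1.99 and −3.88 in null cords, against −3.29, −3.97 and −4.51 in wild-type cords, and Rhag is given above. Null 2 was highest and wild-type 3 lowest for all 3, as the shared order implies.

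The mean of the granulocyte markers had that order too. All 14 genes tested on the list of neutrophils and marrow granulocytes had higher means in null, where 55.9% of all genes did. Their median log2 difference was 1.21, which was 0.74 without null 2 and 1.84 without null 3. An unadjusted p under 0.05 was reached by 3 (5.81% of all genes, null higher), and none passed after adjustment. Their mean per array was 0.83, 1.69 and −0.43 in null and −0.08, −0.65 and −1.36 in wild-type cords. This is the order of Slc4a1 exactly, which was so for 1 of the 13 lists examined, and 5 of the 14 genes had it one by one. The share of all probes with this order was not worked out, so these counts have no background. Genes of a list that vary together are not separate matches. The erythroid transcription factors and the red cell membrane list came close to the same order. The array means of the transcription factors were 0.27, 0.30 and −0.21 in null and 0.11, −0.15 and −0.32 in wild-type cords. They departed from the order of Slc4a1 only in that wild-type 2 stood above null 3. The membrane list departed from it only in that wild-type 1 stood above null 1. S100a9, a calcium-binding protein that neutrophils hold in bulk, read 6.37, 6.87 and 4.96 in null cords, against 5.54, 4.87 and 4.41 in wild-type cords. Its partner S100a8 read 4.38, 4.84 and 2.83 in null and 3.32, 2.51 and 2.14 in wild-type cords. Prtn3, a protease of early granulocytes, read −3.69, −2.32 and −3.94 in null and −4.30, −4.46 and −4.70 in wild-type cords. The part of such cells in the Slc4a1 values was not tested.

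Platelets, which circulate with red cells, gave another order. Of 12 platelet genes, 10 had higher means in null (55.9% of all genes did), with a median of 0.29 (0.48 without wild-type 1). At an unadjusted p under 0.05 stood 4, all with null higher (5.81% of all genes), and none passed after adjustment. Treml1, a receptor of platelet granules, read −2.94, −2.70 and −2.53 in null cords, against −3.97, −3.47 and −3.52 in wild-type cords. Clec1b, the podoplanin receptor of platelets, read −3.96, −3.83 and −3.54 in null and −4.94, −4.55 and −4.38 in wild-type cords. Neither overlapped between the genotypes, but they are named as the 2 genes of smallest p in this list. Of all probes, 9.49% lay higher on every null array. Pf4, platelet factor 4, overlapped, with −1.12, −0.14 and 0.33 in null and −0.11, −0.72 and 0.82 in wild-type cords. The list's array mean was 0.02, 0.28 and 0.33 in null and −0.33, −0.06 and −0.25 in wild-type cords, so that wild-type 2, low for the globins and Alas2, was the highest wild-type array here, and null 1, high for them, the lowest null array.

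Vessel wall genes gave a different order. Of 17 genes of endothelium and mural cells, 7 had higher and 10 lower means in null (55.9% of all genes were higher). Their median was −0.07 over all arrays, 0.10 within slide 1, 0.05 without null 1 and 0.03 without wild-type 3. At an unadjusted p under 0.05, 2 were higher and 1 lower (5.81% and 2.94% of all genes). The list mean was −0.23, 0.06 and 0.15 in null and −0.04, −0.12 and 0.18 in wild-type cords, with null 1 lowest, the array that was highest for Hba-a1, Hbb-b1 and Alas2. B and T lymphocyte genes had 4 higher and 6 lower of 10 tested (55.9% of all genes were higher), with a median of −0.18. Of the lower, 3 had an unadjusted p under 0.05 (2.94% of all genes, null lower). The same 3 did not overlap between the genotypes (4.84% of all probes, null lower). Vpreb1, of the surrogate light chain of B cell precursors, and its relative Vpreb3 differed by −0.81 and −0.84. Ms4a1, the CD20 antigen, differed by −2.02 and was well above background on 4 arrays. Vpreb1 and Ms4a1 are named as the 2 genes of smallest p in the list. None passed after adjustment. Their array means were −0.32, 0.04 and −0.31 in null and 0.53, 0.08 and −0.03 in wild-type cords, and the T cell genes Cd2 and Cd3g and the B cell gene Pax5 were well above background on 0 arrays.

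Adjoining tissues also varied between the samples. All 9 adipocyte genes tested had higher means in null, as did 55.9% of all genes, and none had an unadjusted p under 0.05 by limma. Their median was 0.71 over all arrays, −0.73 within slide 1 and −0.03 without null 2. Their array means were −0.06, 1.63 and −0.55 in null and −1.37, 0.99 and −0.65 in wild-type cords. Of 12 skeletal muscle genes 10 had higher means in null (55.9% of all genes did), and none had an unadjusted p under 0.05 by limma. Their median was 0.60 over all arrays, −0.75 within slide 1 and −0.10 without wild-type 3. The muscle array means were 0.12, 0.40 and 0.27 in null and −0.39, 1.12 and −1.52 in wild-type cords. Wild-type 2, low for the red cell genes, was rich in both adipocyte and muscle transcripts. The 19 genes of spinal cord cells, all well above background on every array, had 11 higher and 8 lower means in null (55.9% of all genes were higher). Their median was 0.03, with array means between −0.03 and 0.12 in null and between −0.11 and 0.15 in wild-type cords. The myelin gene Mbp differed by −0.05 (SE 0.08), and the defining markers of the labelled tissue were present on all 6 arrays. The part of the adjoining tissues in the red cell values was not tested.

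**Figure D4:**
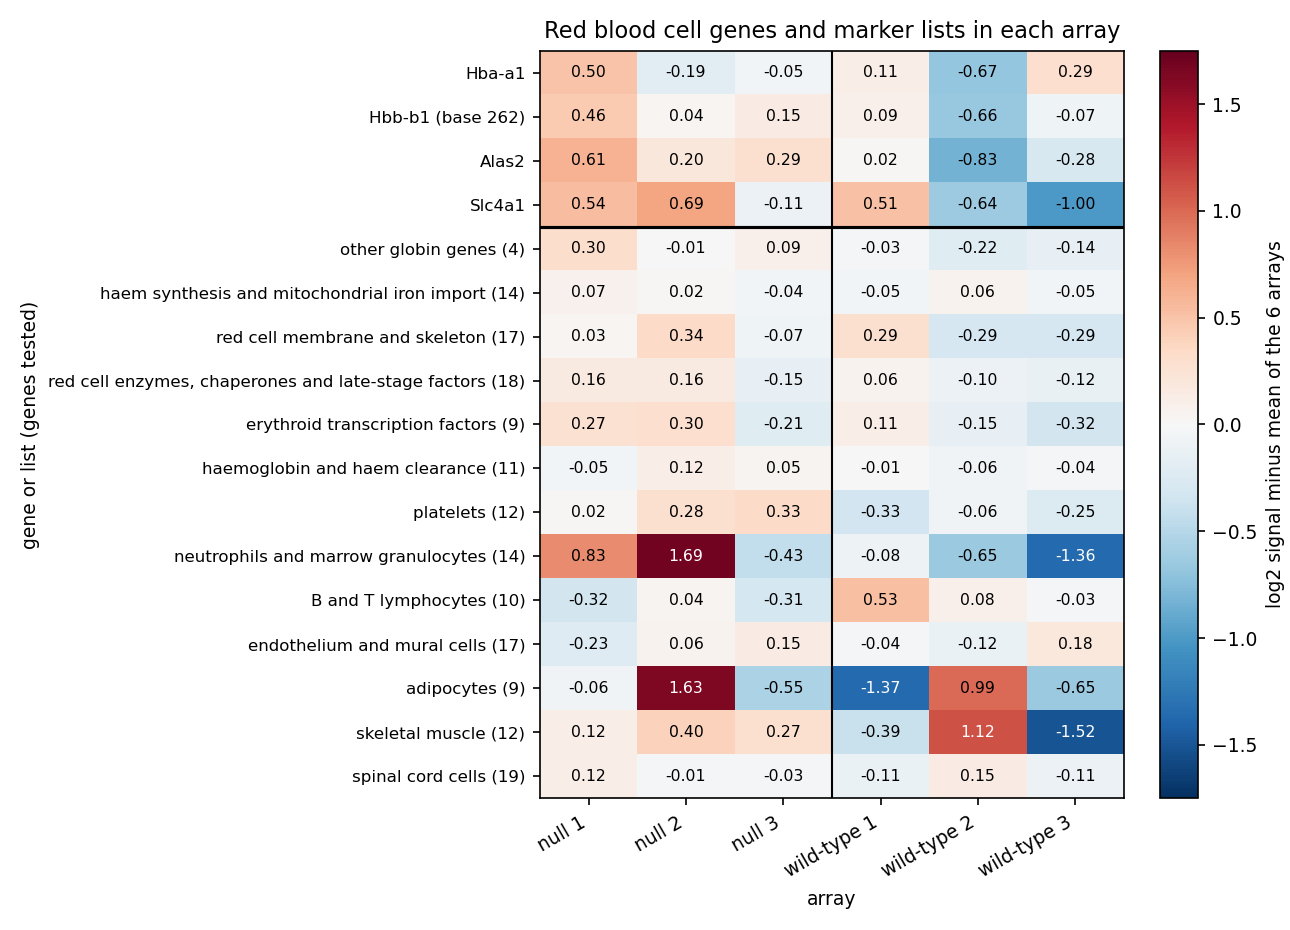
Mean log2 signal per array, minus the mean of the 6 arrays, for the 4 red blood cell genes (above the line) and for 13 marker lists (below it, number of genes tested in brackets), null arrays left of wild-type arrays. Slc4a1 and the neutrophil list share their array order, to which the red cell membrane and erythroid transcription factor lists come close. The endothelium list is at −0.23 on null 1, where the red blood cell genes stand at 0.46 to 0.61.

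The 250 bases before the start of transcription are shown for the alpha globin, beta globin and Alas2 genes, so that their shared letters can be seen. They come from RefSeq on GRCm38.p6. The promoters at hand had an entry for Hba-a1, Hba-a2, Hbb-bt, Hbb-bs and Alas2 but none for Slc4a1, which is why it is not shown. Capitals mark 4 short motifs searched on both strands: GATAA, which the GATA factors bind, CACCC, a box bound by erythroid Kruppel-like factors, the CCAAT box and the TATAA box. Of 32851 promoters of the same length, 22.6% held GATAA, 52.0% CACCC, 33.8% CCAAT and 22.8% TATAA.
Hba-a1, chr11:32283422-32283671, plus strand: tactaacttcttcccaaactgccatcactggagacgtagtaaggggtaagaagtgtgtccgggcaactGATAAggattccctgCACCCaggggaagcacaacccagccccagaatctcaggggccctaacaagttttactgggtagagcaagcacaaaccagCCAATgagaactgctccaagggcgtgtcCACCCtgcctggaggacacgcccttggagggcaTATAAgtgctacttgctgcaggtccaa
Hbb-bt, chr7:103813924-103814173, minus strand: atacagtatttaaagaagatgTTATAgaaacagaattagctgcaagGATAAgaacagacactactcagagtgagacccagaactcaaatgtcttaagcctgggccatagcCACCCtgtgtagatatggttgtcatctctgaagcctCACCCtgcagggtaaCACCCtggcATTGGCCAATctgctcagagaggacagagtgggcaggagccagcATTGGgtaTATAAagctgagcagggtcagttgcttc
Alas2, chrX:150547167-150547416, plus strand: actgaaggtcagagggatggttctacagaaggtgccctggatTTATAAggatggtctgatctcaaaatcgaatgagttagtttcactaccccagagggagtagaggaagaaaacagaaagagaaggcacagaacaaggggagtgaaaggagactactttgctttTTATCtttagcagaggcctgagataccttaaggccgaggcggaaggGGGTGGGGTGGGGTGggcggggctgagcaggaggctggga

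Each of the 3 promoters held GATAA 1 time. The CACCC box was found 2 times in Hba-a1, 3 times in Hbb-bt and 3 times in Alas2, where all lie on the other strand in 1 run. The CCAAT box was found 1 time in Hba-a1, 3 times in Hbb-bt and 0 times in Alas2. The TATAA box was found 1 time in Hba-a1 and 2 times in each of the others, and the 2 matches in Alas2 overlap. The promoter of Hba-a2 shares a run of 247 bases with that of Hba-a1. Such matches describe the letters of these windows only.

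Genes whose array pattern was most like the mean of the 4 genes were ranked by Pearson r over the 6 arrays, among 3087 genes with an SD of at least 0.3. The 4 genes, other globins, and clone-like or predicted names were left out. Other genes of the red cell lists were ranked only where their SD reached 0.3. Bcl11a, an erythroid transcription factor with r = 0.978, fell below that SD and was not ranked. Of the 3087 genes, 24 had an r of 0.9 or more and 15 an r of −0.9 or less. Among the 8 most alike were Plppr1 with r = 0.985, Ebf2 with 0.981, Nhlh1 with 0.977, Zfp819 with 0.975, Kcng2 with 0.962, Ido1 with 0.955 and Glra3 with 0.954. Ebf2 read 0.81, 0.57 and 0.59 in null cords, against 0.52, −0.13 and 0.30 in wild-type cords. The 4 most opposite were Gpr17 with r = −0.95, Fzd10 with −0.94, C1qtnf6 with −0.94 and Lhx4 with −0.94. Gpr17, a receptor of immature oligodendrocytes, read 1.81, 2.26 and 2.33 in null cords, against 2.18, 2.83 and 2.82 in wild-type cords. The points share the scaling of their arrays, and no test was made.

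Dhtkd1 itself was read by 2 probes, both lower on every null array than on every wild-type array, as were 4.84% of all probes. The probe at base 4155 of the transcript read −4.05, −4.05 and −4.16 in null cords, against −2.91, −3.02 and −3.10 in wild-type cords, a log2 difference of −1.08 (SE 0.08, adjusted p = 0.0922 by limma). The probe at base 2361 differed by −1.07 (SE 0.28, adjusted p = 0.514 by limma). Both probes were well above background on all 6 arrays. Whether either lies in the deleted part is not known, and both are in the direction of the labels.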

How the data were processed

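The deposited scanner files hold the processed intensity of each spot, which Agilent Feature Extraction 10.7.3.1 subtracted for background and detrended within each array, per the file headers. The values were not yet scaled between arrays. A deposited table of log2 values, made by the authors in a way not given in the sources used here, served as an alternative. The log2 intensity was scaled here to the 75th percentile of each array (950 to 1055 in processed intensity), scanner outliers were left out and spots of a probe averaged. Between 78.4% and 82.0% of spots were well above background. Probes well above background on at least 3 of 6 arrays were tested with limma 3.58.1 in R 4.3.3 (lmFit and eBayes, 2-sided), null minus wild-type with no covariate, after a check on simulated data. The number of arrays limits the precision. A list gene was represented by its brightest kept probe. From each list the text names some of the 2 genes of smallest p and the 2 of highest mean, and otherwise the 4 genes, Dhtkd1 and the 8 most like and 4 most opposite genes, of which some are not reported here. Probe names came from the files, and from the RefSeq table (GRCm38.p6) where an accession matched (27660 of 41174 probes). The genes and lists were chosen with earlier results of these data known. Python 3.11.15 and scipy 1.17.1 gave the exact tests. Same-numbered samples were not paired.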

Additional observations from a re-analysis of the deposited data

How the results depend on the processing

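None of the 7 probes passed the adjusted threshold under any alternative run: quantile normalization, median centring, normexp background correction (offset 50), the values the authors deposited, other filters on dim probes, outlier spots kept, a trended and robust fit, slide as a block, slide 1 alone, and each array left out. The Hba-a1 difference reversed to −0.03 without null replicate 1 and to −0.11 without wild-type replicate 2, where 6 of the 7 probes were higher in null, and it reached 0.37 with another array left out. No other probe changed direction. Leaving out 1 array moved Alas2 between 0.50 and 0.92, Slc4a1 between 0.44 (without wild-type 3) and 1.20 (without wild-type 1), and Hbb-b1 at base 61 between 0.64 and 1.18. Over all alternatives the adjusted p was 0.289 to 0.927 for Alas2 and 0.274 to 0.927 for Hbb-b1 at base 61 by limma. The correlation of Hbb-b1 with Alas2 had an exact permutation adjusted p under 0.05 with normexp (r = 0.987, adjusted p = 0.0333) and with the deposited values (r = 0.968, adjusted p = 0.0333), and 0.117 with quantile normalization (r = 0.938). Samples of replicate 3 deviated together (r = 0.30 over all probes), but those of replicates 1 and 2 did not (r of −0.02 and −0.09), so the numbers were not taken to pair the samples. With replicate number as a block Alas2 differed by 0.73 (adjusted p = 0.602 by limma), with no call gained. The count of probes at an unadjusted p under 0.05, 2719 over all arrays, was 1770 without null 2, 1773 without null 3 and 4276 without wild-type 1. Slide 2 holds no null array, so slide and genotype could be compared on slide 1 only. At 3 arrays per group the intervals of 5 of the 7 probes (Hba-a1, Slc4a1 and Hbb-b1 at bases 231, 262 and 496) leave ratios on both sides of 1, and signals near background, as for Rhag and Gata1, are the least certain.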

Other observations

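Genes that take up spent haemoglobin, haem and iron showed no common direction, with 5 of 11 higher and 6 lower in null (55.9% of all genes were higher). Their median log2 difference was −0.07, and it lay between −0.09 and 0.05 when 1 array was left out. Hp encodes haptoglobin, the plasma protein that binds free haemoglobin and that granulocytes also make. Its signals were −0.07, 0.98 and −1.43 in null cords, against −1.54, −1.57 and −2.51 in wild-type cords. Null 2 was highest and wild-type 3 lowest, as for Slc4a1. Hp was 1 of 2 genes of this list that lay higher on every null array, as did 9.49% of all probes. Slc40a1, the iron exporter ferroportin, lay lower on every null array, as did 4.84% of all probes. It read −1.08, −1.19 and −1.41 in null and −0.73, −0.61 and −0.74 in wild-type cords. Fth1, the ferritin heavy chain, differed by 0.03 (SE 0.07). None of the 11 passed the adjusted threshold by limma, and 3 had an unadjusted p under 0.05, 2 with null higher and 1 with null lower (5.81% and 2.94% of all genes).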
